A study of Mus musculus with 45 samples.

Results

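The regions described here are promoter peaks of Capicua (CIC) that stand in the WT list and in neither list from mice with an expanded Atxn1 allele. They were chosen by their peak calls: a WT peak entered when any of its summits lay within 1 kb of an annotated transcript start on chromosomes 1 to 19 and its interval overlapped no 154Q peak and no 154Q[V591A;S602D] peak. Of 2578 WT promoter peaks, 1752 met this rule (68.0%), out of 7213 peaks in the 3 deposited lists. The lists were of unequal length, with 4596 WT, 1695 154Q and 922 154Q[V591A;S602D] peaks, and with the WT list cut to the length of the 154Q list 525 peaks met the rule, or 46.4% of the WT promoter peaks left. They are called WT-only promoter peaks below, which means absent from the other lists at the threshold used to call them and not that the other genotypes had no CIC there.

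CUT&RUN, which uses a nuclease tethered to an antibody to free the DNA around a bound protein, was performed on cerebellar nuclei of C57BL/6 mice at 10 weeks of age. The mice were WT (n = 4), Atxn1 154Q/2Q (154Q, n = 4), which carry an expanded polyglutamine tract in 1 Atxn1 allele, Atxn1 154Q[V591A;S602D]/2Q (n = 3), in which the expanded allele also has V591A and S602D in the domain that contacts CIC, and Engrailed1-Cre;Cic fl/fl (CIC KO, n = 4), in which Cre acts in the Engrailed1 lineage and cells outside that lineage keep Cic. The nuclei of each animal were split over 3 antibodies, giving 45 samples, of which the 30 IgG and H3K27ac samples were not analysed here. All 3 lists were called on libraries merged within a genotype against the same merged CIC KO libraries, so each peak has 1 value, with no SD and no n, and shared control fragments enter every list.

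CIC is an HMG-box repressor that binds a short octamer, and ATXN1 stabilises it and joins it on DNA. It is best known for holding down genes induced by RAS and ERK signalling, such as the Etv and Spry genes, until ERK phosphorylation relieves the repression. Promoters of widely expressed genes carry other recurrent elements, among them GC boxes read by SP and KLF factors and CCAAT boxes bound by NF-Y.

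Windows of 101 bp, in 3 sets, centred on the strongest summit, show the DNA that the results turn on. Each is written on the strand of the named gene, from GRCm38, and none overlaps an annotated exon. The first set holds the 4 WT-only promoter peaks with the highest −log10 q that met this condition, at Rab5b (chr10:128696411-128696511, minus strand), Ulk1 (chr5:110810159-110810259, minus strand), Zswim6 (chr13:107890151-107890251, minus strand) and Jun (chr4:95052310-95052410, minus strand). Capitals mark any of the 10 motifs searched, which here were CCAAT at Rab5b and GGGCGG at Ulk1 and Zswim6, read on either strand, and none at Jun.
Rab5b: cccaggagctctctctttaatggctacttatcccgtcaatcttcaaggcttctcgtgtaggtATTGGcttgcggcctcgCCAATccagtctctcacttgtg
Ulk1: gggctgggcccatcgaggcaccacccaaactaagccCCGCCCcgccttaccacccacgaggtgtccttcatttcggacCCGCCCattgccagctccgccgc
Zswim6: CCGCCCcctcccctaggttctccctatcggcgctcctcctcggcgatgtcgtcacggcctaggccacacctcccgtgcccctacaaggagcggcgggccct
Jun: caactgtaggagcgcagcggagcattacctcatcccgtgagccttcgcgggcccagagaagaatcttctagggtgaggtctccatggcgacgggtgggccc

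The second set holds WT-only promoter peaks of protein-coding genes with the highest signal in the CIC KO control among windows free of exons, at Arrdc4 (chr7:68749243-68749343, minus strand), Ankrd54 (chr15:79063027-79063127, minus strand) and Klf6 (chr13:5861304-5861404, plus strand). Capitals mark CCAAT or its reverse complement ATTGG.
Arrdc4: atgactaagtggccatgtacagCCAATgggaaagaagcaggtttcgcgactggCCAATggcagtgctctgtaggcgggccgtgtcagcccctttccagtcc
Ankrd54: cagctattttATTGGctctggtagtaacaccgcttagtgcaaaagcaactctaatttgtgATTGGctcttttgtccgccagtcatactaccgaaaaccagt
Klf6: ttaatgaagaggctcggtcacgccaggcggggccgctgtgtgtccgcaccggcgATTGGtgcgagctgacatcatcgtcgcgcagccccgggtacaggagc

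The third set holds the 5 strongest exon-free WT-only promoter peaks with a CIC octamer, at Csnk2a1 (chr2:152226646-152226746, plus strand), Gtf2i (chr5:134314898-134314998, minus strand), Dusp7 (chr9:106368148-106368248, plus strand), Ahi1 (chr10:20952293-20952393, plus strand) and Stt3a (chr9:36767725-36767825, minus strand). The Etv5 promoter (chr16:22439844-22439944, minus strand), which is in all 3 lists, stands beside them for comparison. Capitals mark the octamer, which at Ahi1 recurs in a run of the repeat TTCA.
Csnk2a1: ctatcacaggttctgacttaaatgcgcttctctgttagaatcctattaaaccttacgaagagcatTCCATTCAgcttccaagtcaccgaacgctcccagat
Gtf2i: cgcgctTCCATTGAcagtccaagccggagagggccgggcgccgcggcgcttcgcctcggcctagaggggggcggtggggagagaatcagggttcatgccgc
Dusp7: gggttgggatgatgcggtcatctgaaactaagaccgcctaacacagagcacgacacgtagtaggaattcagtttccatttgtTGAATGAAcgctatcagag
Ahi1: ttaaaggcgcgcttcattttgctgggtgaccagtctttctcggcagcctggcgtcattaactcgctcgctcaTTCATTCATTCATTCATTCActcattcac
Stt3a: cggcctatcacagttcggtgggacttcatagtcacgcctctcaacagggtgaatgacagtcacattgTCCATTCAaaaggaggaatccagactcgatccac
Etv5: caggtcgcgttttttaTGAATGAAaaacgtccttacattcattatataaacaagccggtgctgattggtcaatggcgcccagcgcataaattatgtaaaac

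WT-only promoter peaks were weak as a class, and a few were strong. Their fold enrichment, the ratio of WT pileup to control background at the summit with 1 added to each, had a median of 2.77, quartiles of 2.46 and 3.20, and a highest value of 7.55. For comparison, the median was 3.43 in the 387 promoter peaks shared with 154Q, 3.25 in the 121 shared with 154Q[V591A;S602D] and 4.17 in the 318 found in all 3 lists. The −log10 q had a median of 3.33 in WT-only promoter peaks and 17.8 in those of all 3 lists. In WT-only promoter peaks the q-value exceeded 0.01 in 465 (26.5%) and the −log10 q passed 10 in 170 (9.70%) and 20 in 24 (1.37%). The values come from the calls that chose the peaks and were not tested.

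The strength of a WT peak moved together with its presence in the other lists. Found in WT alone were 91.4% of WT promoter peaks with a −log10 q from 1.3 to 2 (95% Wilson interval 88.6 to 93.5%), 79.1% of those from 3 to 5, 65.9% from 5 to 10, 38.5% from 10 to 20 and 13.7% from 20 to 50 (9.39 to 19.6%). None of the 36 peaks at 50 or above was WT-only (upper bound 9.64%). These intervals, like the others given for shares, cover counting error over peaks and not variation between mice.

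**Figure D1:**
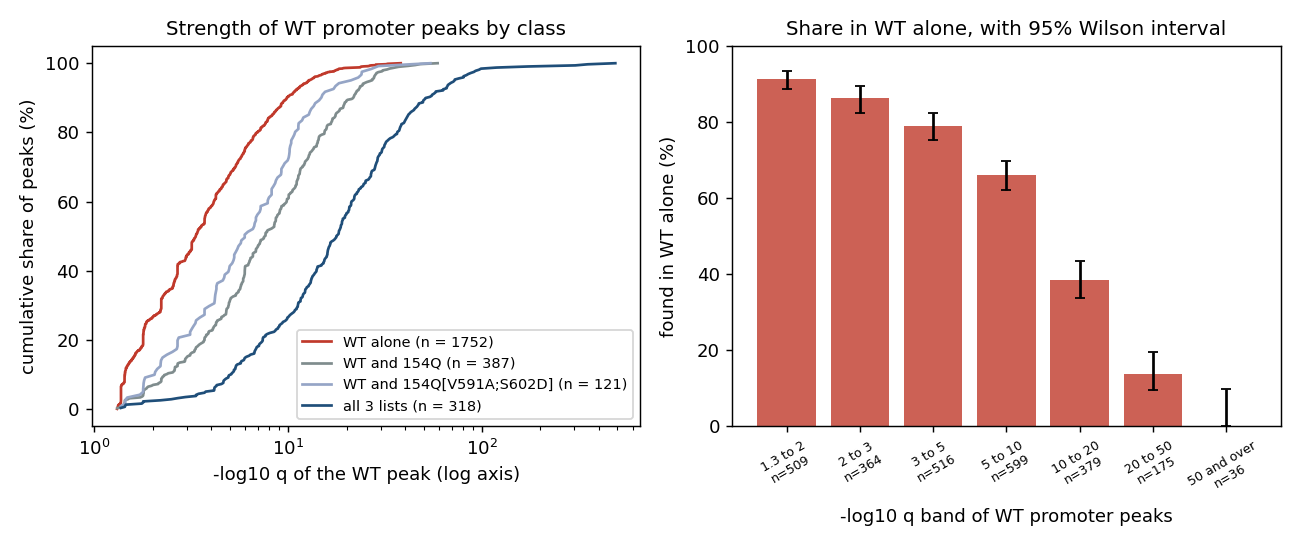
Left, cumulative share of WT promoter peaks (vertical axis, %) by −log10 q of the WT peak (horizontal log axis) for the 4 classes of overlap. Right, share of WT promoter peaks found in WT alone (%) per band of −log10 q, with 95% Wilson intervals and the number of peaks; the share goes from 91.4% in the weakest band to 0 of 36 peaks in the strongest.

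WT-only promoter peaks were also narrow. Their width had a median of 194 bp, against 416.5 bp in all 3 lists, and 920 (52.5%) were under 200 bp. A second summit was present in 280 (16.0%), against 169 of 318 (53.1%). The fragment pileup solved from the deposited values had a median of 31 over a control background of 9.36, whereas it was 64 over 13.0 in all 3 lists. In 597 WT-only promoter peaks (34.1%) the summit pileup was 25 fragments or fewer, all WT animals combined, and the lowest was 19. At such pileups a site missing from another list was not shown to be unbound there.

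The 15 strongest WT-only promoter peaks ranked from 87 to 191 among all WT peaks. At Rab5b, a GTPase of early endosomes, the −log10 q of 38.1 was the highest and the fold enrichment was 2.28, from 358 fragments over a background of 156. At Ulk1, the kinase that starts autophagy, 78 fragments stood over 10.5 (fold enrichment 6.85, −log10 q 35.7). These peaks thus reached a similar q from unlike signals, with a control background among the 10 highest of the class at Rab5b and near the class median of 9.36 at Ulk1.

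The highest fold enrichment, 7.55, was at Clp1, an RNA kinase of tRNA splicing (64 fragments over 7.60). Cc2d1a followed at 6.86, Slc35e1, a member of a family of nucleotide sugar transporters, had 6.45, and Fbxo46, an F-box protein, had 6.03. Dad1, a subunit of the oligosaccharyltransferase, had 5.81, and Smarcd2, a subunit of the BAF remodelling complex, had 5.32. Zswim6, which this annotation lists as a processed transcript, and Mir22hg, the host of miR-22, had 5.02 and 5.07. Lower enrichments were recorded at Csnk2b, the regulatory subunit of casein kinase 2 (4.73), Mpp7, a polarity scaffold (3.93), and Jun, the AP-1 subunit (3.77). Narf had 2.57, and the lowest of the 15 were Rab5b and Atp5b, the β subunit of the mitochondrial ATP synthase (2.20, 296 fragments over 134).

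Overlap was an all-or-none criterion, and some peaks missed it narrowly. A 154Q or 154Q[V591A;S602D] peak lay within 1 kb of 180 WT-only promoter peaks (10.3%) and within 250 bp of 78 (4.45%), while the median distance to the nearest such peak was 138861 bp. Just inside the limit, the peaks at Ado (chr10:67549036-67549463), Dnajc14 (chr10:128805310-128805465) and Usp28 (chr9:48985057-48985341) each had a 154Q peak 4 bp away. Just outside, 154Q peaks reached 1 bp into the WT interval at Dcaf7 (chr11:106036692-106036854), 4 bp at Fis1 and 5 bp at Atp1b2. The 154Q list gives summits and no intervals, so distances to it are upper bounds. For the distance to a start, the farthest WT-only promoter summit, at Usp2, was 998 bp away, and the nearest peak outside the limit was at 1020 bp. The weakest −log10 q was 1.31, at Ift172 and Gm6658.

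Among the strong peaks, Dad1 had a 154Q peak 118 bp from its interval, Csnk2b 562 bp and Mir22hg 559 bp, and a 154Q[V591A;S602D] peak lay 444 bp from that of Mir22hg and 599 bp from that of Jun. Rab5b, Ulk1, Zswim6, Clp1, Atp5b, Cc2d1a, Narf, Fbxo46 and Mpp7 had none within 10 kb in either list.

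Summits of WT-only promoter peaks clustered just upstream of the start. Measured along the strand of the named gene, the median position was -64 bp with quartiles of -172 and 62.3 bp. The summit was upstream in 1157 (66.0%, 63.8 to 68.2%) and downstream in 588 (33.6%), and within 250 bp of the start in 1204 (68.7%). In all 3 lists 255 of 318 summits (80.2%, 75.5 to 84.2%) were upstream and the median was -99 bp. The named gene was protein-coding for 1625 peaks (92.7%), and 210 (12.0%) had protein-coding starts on both strands within 1 kb.

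**Figure D2:**
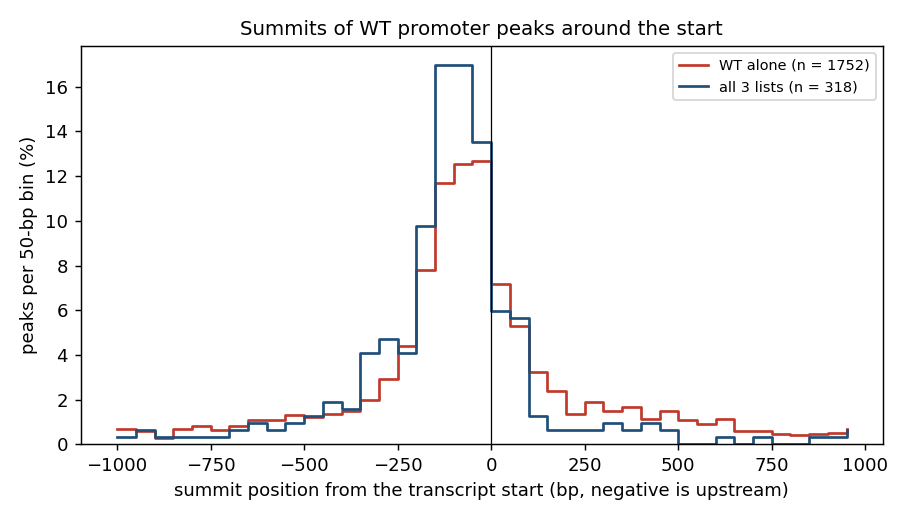
Share of peaks per 50-bp bin (vertical axis, %) by position of the strongest summit from the transcript start (horizontal axis, bp, negative upstream) for WT-only promoter peaks and promoter peaks of all 3 lists. The medians are -64 and -99 bp, and WT-only summits reach farther downstream.

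Sequence was not used to choose the peaks, so it was compared by test. In a window of 50 bp on either side of the strongest summit, GC content had a median of 60.4% in WT-only promoter peaks, 61.4% in all 3 lists, 60.4% at all protein-coding starts and 52.5% in windows 500 bp to the side of the WT-only summits. The 10 motifs were searched on both strands. The CIC octamer was any of TGAATGAA, TGAATGGA, TCAATGAA or TCAATGGA. The GC box of SP and KLF factors was read as GGGCGG. For the ETS family, whose members respond to ERK, the word was CCGGAAG. NRF1, a regulator of nuclear genes for mitochondria, was represented by GCATGCGC, and the cyclic AMP response element of CREB by TGACGTCA. The box of NF-Y was CCAAT. An E-box, the element of basic helix-loop-helix factors, was taken as CACGTG. YY1 sites were taken as AAGATGGC and those of RFX factors as GTTGCCAT. The TATA box of core promoters was TATAAA. None of these words contains another, although neighbouring words can share bases. Summits were compared with their own flanks by an exact McNemar test and with all 3 lists by Fisher's exact test, both two-sided with Benjamini-Hochberg adjustment over the 10 motifs and with peaks, not mice, as units.

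The CIC octamer was rare in WT-only promoter peaks. It was present in 18 of 1752 summit windows (1.03%, 0.651 to 1.62%) and in 22 of their flanks (1.26%), a difference of -0.23 percentage points that did not pass the exact McNemar test (adjusted p = 0.636). Windows at 20720 protein-coding starts held it in 0.912%. In promoter peaks of all 3 lists the octamer was present in 16 of 318 summit windows (5.03%, 3.12 to 8.02%) and 3 flanks (0.943%), and the WT-only share minus this share was -4.004 percentage points (Fisher's exact test, adjusted p = 5.27e-05).

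The classes differ in strength, which moves with how they were chosen. Restricted to the 260 peaks of all 3 lists no stronger than the strongest WT-only promoter peak, a comparison added after the data were seen, the octamer share was 3.08% and the difference of -2.05 percentage points no longer passed Fisher's exact test (adjusted p = 0.0671). Within bands of −log10 q, the octamer was in 3 of 465 WT-only peaks and 0 of 7 peaks of all 3 lists from 1.3 to 2, in 3 of 314 and 0 of 4 from 2 to 3, and in 7 of 408 (1.72%) and 0 of 20 from 3 to 5. It was in 4 of 395 WT-only peaks (1.01%) and 2 of 53 peaks of all 3 lists from 5 to 10, in 1 of 146 and 1 of 96 from 10 to 20, and in 0 of 24 and 5 of 104 from 20 to 50. Of the 16 octamers in all 3 lists, 8 were in the 34 peaks at 50 or above, a range with no WT-only promoter peak.

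Among the 18 peaks with an octamer, the strongest was at Csnk2a1, the catalytic subunit of casein kinase 2 (chr2:152226483-152226776, fold enrichment 3.94, −log10 q 10.1), whose regulatory subunit Csnk2b is among the 15 strongest peaks. Gramd1b, a cholesterol transfer protein, had 3.99. Lower in q were Dpf1, a BAF subunit (2.04), Ap4m1, an adaptor subunit whose peak also lies at Mcm7 (2.24), Gtf2i, a transcription factor of the Williams syndrome region (2.99), and Dusp7, an ERK phosphatase (2.67). The Dusp7 peak (chr9:106368113-106368241) had a 154Q peak 184 bp away. Rccd1, Ahi1, Sf3b4, Stt3a, Nsun6, A830005F24Rik, Zbtb24, Dexi and Trim2 completed the 15 strongest, with fold enrichments of 1.70 to 3.30.

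Other promoter elements were more frequent at WT-only summits than at their flanks. The SP/KLF word was present in 33.2% of summits and 14.0% of flanks (adjusted p = 1.87e-41 by exact McNemar test), the NF-Y word in 24.0% and 9.76% (1.32e-30), the ETS word in 5.14% and 1.31% (4.96e-10), the NRF1 word in 2.17% and 0.285% (6.25e-07) and the CREB word in 0.856% and 0.114% (0.0047). The TATA word was rarer at summits, in 1.83% against 3.48% (0.00519). For the YY1 (1.31% and 0.742%), RFX and E-box words the difference did not pass the test. At all protein-coding starts the SP/KLF share was 28.8%, the NF-Y share 13.6%, the ETS share 6.84%, the NRF1 share 1.79%, the CREB share 1.26% and the TATA share 5.43%. The ETS and CREB shares at WT-only summits were thus above those of the flanks and below those of all starts. The latter comparison was not tested. Summits had to lie within 1 kb of a start, and flanks were 500 bp from the summits. The flank test therefore cannot separate a trait of these peaks from nearness to a start.

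Against promoter peaks of all 3 lists, only the SP/KLF word and the octamer passed Fisher's exact test among the 10 motifs. The SP/KLF word differed by -13.3 percentage points, at 33.2% in WT-only promoter peaks against 46.5% (Fisher's exact test, adjusted p = 5.27e-05). These classes differ in strength (median −log10 q 3.33 against 17.8), and the SP/KLF difference was not examined at matched strength. The NF-Y word was present in 24.0% (22.03 to 26.0%) and 24.2% (19.8 to 29.2%). None of the 10 motifs was present in 770 WT-only summits (43.9%).

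**Figure D3:**
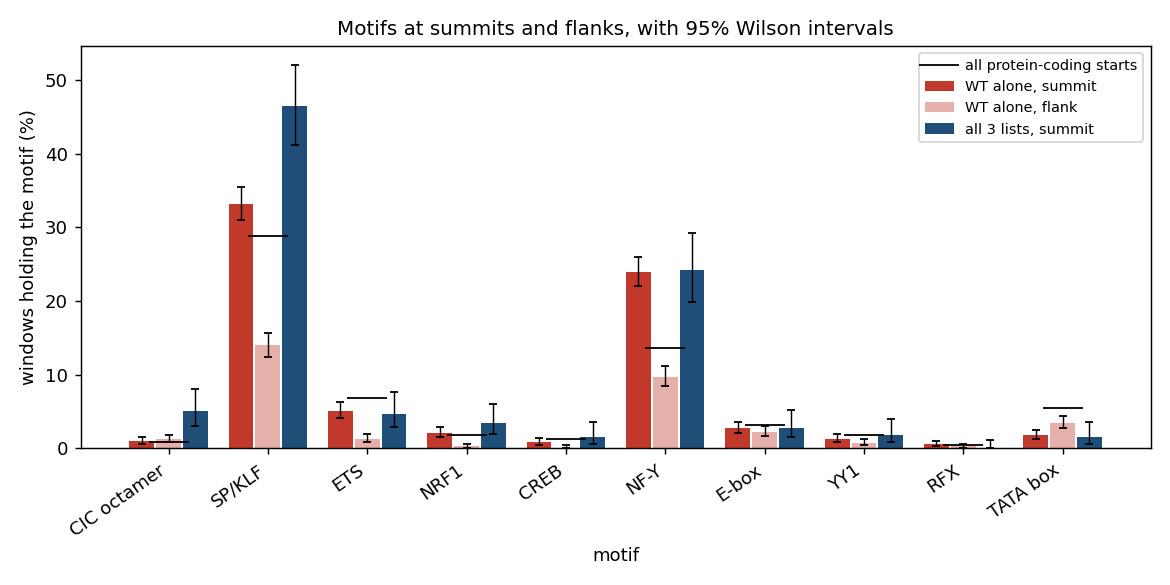
Share of 101-bp windows holding each motif (vertical axis, %) at WT-only promoter summits, at their flanks 500 bp away and at promoter summits of all 3 lists, with 95% Wilson intervals, and at all protein-coding starts (black dashes). The SP/KLF and NF-Y motifs are the most frequent at WT-only summits, at 33.2% and 24.0%, and the CIC octamer is at 1.03%.

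The CCAAT box followed the signal of the control libraries. The background at a summit is the number of fragments that the CIC KO libraries lead one to find there, and its smallest value, 6.59 fragments, is the genome-wide one. In WT-only promoter peaks with a background up to 1.5 times this value a CCAAT box was present in 77 of 943 summit windows (8.17%, 6.58 to 10.1%). From 1.5 to 3 times it was present in 99 of 483 (20.5%), from 3 to 6 times in 98 of 169 (58.0%, 50.5 to 65.2%), and above 6 times in 146 of 157 (93.0%, 87.9 to 96.0%). At least 2 CCAAT boxes were present in 0.848% of the lowest and 45.9% of the highest group. In the flanks of the same peaks, 500 bp away, the share was between 9.01% and 11.2% in every group. The SP/KLF word had no such gradient, at 27.5%, 40.6%, 42.0% and 35.7%. This pattern was noticed in the data and is given without a test.

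The same gradient was present in promoter peaks of all 3 lists, from 8 of 98 (8.16%) in the lowest group to 21 of 28 (75%) in the highest, so it is no feature of WT-only promoter peaks in particular. Read the other way, WT-only promoter peaks with a CCAAT box had a median background of 24.3 fragments, those with at least 2 had 46.2, and those with none had 8.22. Fold enrichment went in the other direction, with a median of 2.97 in the group of lowest and 1.82 in that of highest background. This direction is partly built in. The background is the divisor of the ratio, and a lower ratio passes the calling limit where counts are high.

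The 10 members with the highest background had fold enrichments from 1.26 to 2.28, and the 5 named here were chosen after their values were seen. At Arrdc4, an arrestin-domain protein, 387 WT fragments stood over a background of 226 (fold enrichment 1.71, −log10 q 17.5), with 2 CCAAT boxes in the window. At Ankrd54 332 stood over 199 (1.67), also with 2. At Klf6, a zinc-finger transcription factor, 305 stood over 194 (1.57), with 1. At Sp2, itself a GC-box factor, 211 stood over 157 (1.34) with 4. The strongest WT-only peak, Rab5b, is in this group, with 2. In all, 326 WT-only promoter peaks (18.6%) had a background above 3 times the genome-wide value, against 80 of 318 in all 3 lists (25.2%). In all 3 lists the background was solved for 316 peaks, and unsolved ones count as not above. Of the 24 WT-only promoter peaks with a −log10 q above 20, 8 were among the 326. For these 326, the call rests on an excess over a high background expected from the CIC KO libraries, whose reads were not counted here.

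**Figure D4:**
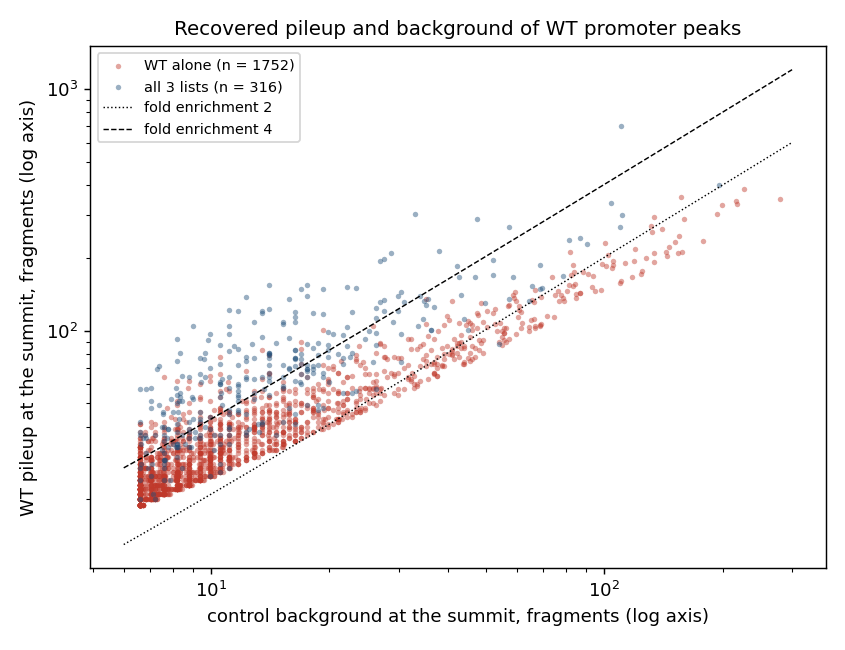
WT pileup at the summit against the control background (fragments, both axes log) for WT-only promoter peaks and promoter peaks of all 3 lists; dotted and dashed lines mark fold enrichments of 2 and 4. Most WT-only peaks lie toward the lower edge of the cloud, and 326 of 1752 have a background above 3 times the genome-wide 6.59 fragments.

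**Figure D5:**
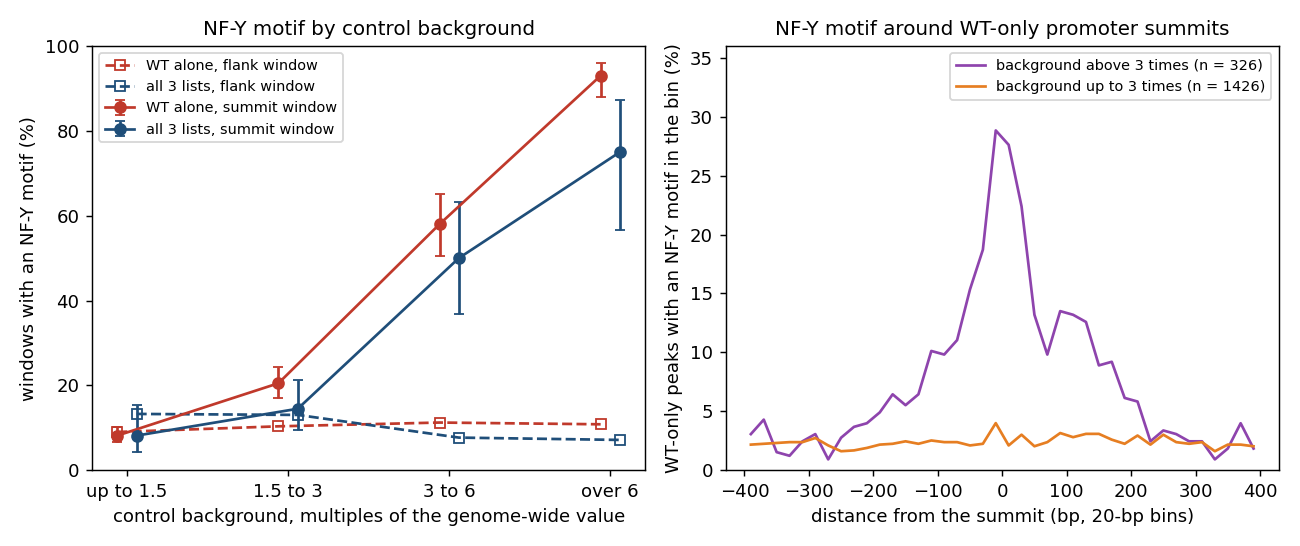
Left, share of summit windows (filled) and flank windows (open) with the NF-Y motif (%) by control background in multiples of the genome-wide value, with 95% Wilson intervals on summit shares. Right, share of WT-only promoter peaks with the motif per 20-bp bin by distance from the summit, for background above and up to 3 times; the first rises to 28.8% beside the summit.

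At the level of genes, 1754 of 20807 protein-coding genes had a WT-only promoter peak (8.43%), 2534 had any WT promoter peak (12.2%) and 1265 a promoter peak of 154Q or 154Q[V591A;S602D] (6.08%). Of the 1754 genes, 1565 (89.2%) had no promoter peak in either other list, 164 had one in 154Q and 83 one in 154Q[V591A;S602D] at another position of the promoter. Of the 1565, 92 (5.88%) had a peak of another list elsewhere in the gene or within 5 kb upstream. Because neighbouring genes share promoters, 1 peak can count for several genes. The gene lists below were chosen with earlier results of these data known and are given as counts beside the 8.43% of all protein-coding genes, with no test.

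Genes of RAS and ERK signalling and known CIC targets had WT-only promoter peaks in 13 of 57 cases (22.8%), any WT promoter peak in 23 (40.4%, against 12.2% of all genes) and a promoter peak of another list in 19 (33.3%, against 6.08% of all genes). Their WT-only promoter peaks had a median −log10 q of 4.47 against 3.33 in all WT-only promoter peaks. The strongest was Jun (chr4:95052273-95052847, 135 fragments over 35.1). Rasa1, a RAS GTPase-activating protein, had a pair of WT-only peaks with summits at -490 and -801 bp from its start, with fold enrichments of 4.98 and 2.64, and the weaker one held an octamer. Junb (2.78), Egr3 (2.64), Mapk3, which encodes ERK1 (3.69), Rras (2.53), the ERK-activated kinase Rps6ka1 (3.13) and the phosphatase Dusp1 (2.16) likewise had no promoter peak in the other lists, although Rras and Dusp1 had a 154Q peak elsewhere in the gene or within 5 kb upstream. At Egr1 (3.79), Dusp5 (3.32) and Spry4 (2.52), an ERK-induced transcription factor and ERK feedback inhibitors, the WT-only peak stood beside another WT promoter peak that was shared, and both other lists had a promoter peak there. Grb2, the adaptor that brings SOS to receptors (2.91), and Dusp7 had a separate 154Q promoter peak, and Jun one of 154Q[V591A;S602D].

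Of the genes of the ATXN1-CIC complex and its partners, 4 of 19 had a WT-only promoter peak (21.1%), 8 any WT promoter peak (42.1%) and 7 a promoter peak of another list (36.8%, against 6.08% of all genes). Sap30 (3.20), Sin3a (3.22) and Rbbp4 (3.49) encode parts of the SIN3 deacetylase complex, and each had a separate promoter peak in 154Q. Sin3a also had one in 154Q[V591A;S602D], and Sin3a and Rbbp4 had another WT promoter peak that was shared. Rfx1, a transcriptional repressor, had a peak in WT alone, with a fold enrichment of 1.66 and a −log10 q of 1.41 near the calling limit (73 fragments over 43.6).

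Genes linked to ataxia had WT-only promoter peaks in 6 of 38 cases (15.8%) and any WT promoter peak in 7 (18.4%). Among the first, Aptx, a DNA repair enzyme, had 23 fragments over 7.02 (2.99).

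Genes used in all cells are given by their WT-only promoter peaks and, beside these, by WT promoter peaks of any class, which 12.2% of all protein-coding genes had. Cytosolic ribosomal proteins had WT-only promoter peaks in 17 of 72 cases (23.6%) and any WT promoter peak in 25 (34.7%), among the first Rpl19 (3.59), Rps14 (2.93) and Rps2 (2.59). Of the 17, 16 had no promoter peak in the other lists, near the 89.2% of all genes with a WT-only promoter peak. Mitochondrial ribosomal proteins had them in 10 of 77 (13.0%; any, 23.4%), including Mrpl32 (2.99), Mrpl45 (3.76) and Mrpl51 (2.67), and respiratory chain subunits in 10 of 76 (13.2%; any, 26.3%), including Atp5b, Ndufa5 (4.94) and Cox7c (4.61). A promoter peak of another list was present in 13.9% of cytosolic ribosomal, 13.0% of mitochondrial ribosomal and 17.1% of respiratory chain genes. Among splicing factors and proteasome subunits the shares were 12.5% and 10.5%, against 6.08% of all genes. Splicing factors had them in 8 of 32 (25%; any, 34.4%; Srsf7, 3.70; Snrpg, 2.46; Snrpa, 1.92) and proteasome subunits in 7 of 38 (18.4%; any, 28.9%; Psmc6, 4.30; Psma2, 2.99; Psma1, 3.63). The Psma2 peak is also that of Mrpl32, since the starts of these genes face apart across 1 promoter.

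Among smaller groups, RNA polymerase II and Mediator had WT-only promoter peaks in 7 of 41 (17.1%; Med19, 2.00; Polr2e, 2.84; Med25, 2.70), the V-ATPase proton pump 4 of 22 (18.2%; Atp6v0d1, 4.68; Atp6v1a, 3.50; Atp6v0e, 2.62), histone deacetylases and acetyltransferases 6 of 25 (24.0%; Ep300, 4.71; Sirt4, 5.54; Kat6b, 1.81), tRNA synthetases 5 of 37 (13.5%; Yars, 4.88; Yars2, 3.09) and autophagy genes 4 of 27 (14.8%; Ulk1, 6.85; Atg16l2, 2.76; Atg12, 3.24). Translation initiation factors, at 4 of 52 (7.69%; Eif3j1, 5.04; Eif2b4, 4.55; Eif4a1, 3.59), ubiquitin-conjugating enzymes, at 2 of 34 (5.88%; Ube2r2, 4.48; Ube2ql1, 2.66), and zinc-finger genes named Zfp, at 35 of 383 (9.14%), were near the 8.43% of all genes. The Zfp genes were led by Zfp143 (231 fragments over 101), Zfp263 (4.01) and Zfp94 (4.53). In these smaller groups the share with any WT promoter peak was between 15.7% and 32.0%. Their WT promoter peaks of all classes thus stood above the 12.2% of all genes too. The share with a promoter peak of another list was between 9.09% and 21.15%, against 6.08% of all genes. Among the genes named here, Eif2b4 had one in both other lists, Eif4a1 and Ube2ql1 had one in 154Q, and Atp6v0e had one in 154Q[V591A;S602D]. Eif2b4 and Eif4a1 also had another WT promoter peak that was shared.

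Histone genes had WT-only promoter peaks in 12 of 67 cases (17.9%), any WT promoter peak in 13 (19.4%) and a promoter peak in another list in 1 (1.49%, against 6.08% of all genes). The 12 genes share 8 peaks, because Hist1h2ag and Hist1h2bj and other pairs are transcribed away from a common promoter. At Hist1h2ag and Hist1h2bj 79 fragments stood over 35.1 (2.22), and at Hist1h2be 30 stood over 7.72 (3.56). Copies of histone genes are similar in sequence, and how reads that match several copies were treated is not given in the sources used here.

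Genes that mark cerebellar cell types differed in their counts. Granule cell genes had WT-only promoter peaks in 4 of 18 cases (22.2%): Zic1, a transcription factor (2.84), Slc17a7, the vesicular glutamate transporter VGLUT1 (3.74), Neurod1, which drives granule cell differentiation (2.78), and Grin2c, an NMDA receptor subunit (3.03). Zic1 also had a separate 154Q promoter peak, and Slc17a7 a 154Q[V591A;S602D] peak elsewhere in the gene or within 5 kb upstream. Purkinje cell genes had 0 of 25, astrocyte and Bergmann glia genes 0 of 15, oligodendrocyte genes 0 of 14 and microglia genes 0 of 12. For WT promoter peaks of any class the counts were 6 of 18 granule cell genes (33.3%), 1 of 25 Purkinje cell genes and 0 in the 3 glial lists. A promoter peak of another list was present in 4 granule cell genes (22.2%), 2 of 25 Purkinje cell genes (8%) and 0 in the glial lists. Of all genes, 6.08% had one. The order was thus not particular to WT-only promoter peaks. Receptors of glutamate and GABA had 4 of 43 (9.30%), Grin2c among them, and voltage-gated channels 3 of 69 (4.35%; Cacna1c, 3.80; Kcnc1, 3.03). In whole cerebellum a site bound in few cells and a site weakly bound in many cannot be told apart.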

How the data were processed

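Peaks came from CUT&RUN with a CIC antibody on cerebellar nuclei. According to the methods, the authors trimmed reads with Trimmomatic 0.36, aligned them with Bowtie2 2.3.4.1 to mm10 (GRCm38), kept fragments under 120 bp, merged replicates of a genotype and called peaks with MACS at a q-value of 0.05 against merged CIC KO libraries. For WT and for 154Q[V591A;S602D] the authors deposited intervals, summits, the fold enrichment (a ratio) and −log10 p and −log10 q per peak. For 154Q they deposited single-base summits with −log10 q, and that list was filtered for repeats by the authors, whereas the other lists still hold peaks in repeats. Library depths are not in these lists.

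Lines were collapsed to peaks, 154Q peaks ran from the first to the last of their summits, and 1 bp of overlap counted. Starts came from GENCODE M21 basic transcripts and sequence from GRCm38. Pileup and background were found by trying whole pileups until fold enrichment and Poisson p both matched the deposited values. This succeeded for all 1752 members and for 316 of the 318 promoter peaks in all 3 lists. Shares carry 95% Wilson intervals. The CIC octamer and 9 other motifs were tested with SciPy 1.17.1 at an adjusted p threshold of 0.05; the steps were tested on simulated data.

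The members, the 24 gene lists and the tests were chosen with earlier results of these data known. Genes named are those nearest the 15 strongest members, the 15 strongest with an octamer, all of the RAS-ERK and ATXN1-CIC lists, at most 3 of each other list and those at the limits of the rule; granule cell genes were all given, and the members of highest control background were named after their values were seen. Alternatives were other paddings, q-values, list lengths, repeat filters, distances, windows, flanks and annotations. Some genes that the naming rule chose are not reported here.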

Additional observations from a re-analysis of the deposited data

How the results depend on the processing

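The peak lists used here were called on merged replicates, so leaving out animals was not possible with them. No paired analysis was possible because replicates were merged before peak calling. Over 61 values recomputed, 42 kept their direction and size or call. The number of WT-only promoter peaks fell to 973 with WT peaks of q below 0.001 and to 525 with the WT list cut to the length of the 154Q list, and the genes with one fell to 1035 and 579, as these settings keep fewer WT peaks. The share of WT promoter peaks found in WT alone was 46.4% with equal list lengths, 57.1% at q below 0.001, 62.2% at q below 0.01, 61.0% when no other peak lay within 1 kb, and 66.0% with 154Q peaks padded by 250 bp or summits within 500 bp of a start. Median fold enrichment was 3.16 at q below 0.001 and 3.48 with equal lengths. With a window of 100 bp on either side, median GC was 60.7%, the octamer share 2.40% and its excess over the flank 0 percentage points. The excess was 0.10 points at q below 0.001 and 0.17 with the flank on the other side, and passed the test under none of the settings run. Against all 3 lists the octamer difference passed the test under 12 of 13 alternatives, from -5.46 to -2.88 points, and was -2.05 (Fisher's exact test, adjusted p = 0.0671) with peaks stronger than any WT-only one left out, which was chosen after seeing the data, as was the comprehensive annotation. Within 250 bp, 78 peaks had a peak of another list. Library depths were not used here, and the lowest summit pileup was 19 fragments.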

Other observations

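Away from promoters, 1548 of 1917 WT peaks (80.8%) were likewise in WT alone, against 68.0% at promoters; the 154Q list has passed a repeat filter and the WT list has not, and the part of this in the difference was not tested. By chromosome, the share of WT promoter peaks found in WT alone lay between 61.5% on chromosome 12 and 78.6% on chromosome 3. Promoter peaks found in 154Q alone held the CIC octamer in 12 of 302 summit windows (3.97%, 95% Wilson interval 2.29 to 6.82%), against 1.03% in WT-only promoter peaks. This difference was not tested, and the sets were not matched for −log10 q. The 154Q list is also shorter than the WT list and filtered for repeats. All WT promoter peaks with a control background above 6 times the genome-wide value, in whichever list, held a CCAAT box in 190 of 212 cases (89.6%).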
